A study of Drosophila melanogaster with 42 samples.

Results

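Transcripts of 4 chromatin genes, kismet (kis, FBtr0078144), HDAC3 (FBtr0078767), SuUR (FBtr0076203) and His4r (FBtr0082962), were followed in the larval ring gland of Drosophila melanogaster. They were selected by transcript identifier and are 4 of the 16637 transcripts in the deposited table. The table does not pair identifiers with names. A RefSeq gene table of Release 6 lists each of the 4 identifiers under a single gene, for HDAC3 and SuUR inside a longer synonym that also carries the gene's symbol. It places 12 other identifiers the same way, and those 12 genes are the only other named ones.

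Kis is a chromodomain helicase of the trithorax group, which works with RNA polymerase II at transcribed genes. HDAC3 is the histone deacetylase of the SMRTER corepressor complex, which hormone receptors recruit in flies. SuUR slows replication forks in heterochromatin of polytene chromosomes, so that these regions stay underreplicated. His4r encodes replacement histone H4, the same protein as the clustered histone H4 genes, from messages made outside S phase. The ring gland joins the prothoracic gland, the corpus allatum and the corpora cardiaca, and the large prothoracic gland cells that make ecdysone grow by endoreplication. The neuropeptide PTTH acts on these cells through the receptor Torso, Ras and the MAP kinase cascade.

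Total RNA was labelled with Cy3 and hybridised to one-colour NimbleGen arrays, 3 per group, in 2 parts. In the wild-type part, dissected ring glands and whole larvae of w1118 were collected at 4, 8, 24 and 36 h of the third instar, which made 8 groups and 24 arrays. In the driver-cross part, phantom-Gal4 (phm22) drove RasV12, a constitutively active Ras, or a torso-RNAi transgene, and the control was phantom-Gal4 crossed to w1118. All 3 genotypes thus carried the driver. Ring glands of these crosses were collected 18 and 8 h before puparium formation, which made 6 groups and 18 arrays. The driver is active in the prothoracic gland, whereas the RNA came from the whole ring gland. The labels note faster development with RasV12 and slower development with torso-RNAi, so larvae at 1 time before puparium formation differed in age between genotypes. For the 9 arrays placed at 8 h before puparium formation the sample titles read 18 h, while the source names and descriptions give 8 h and the titles describe a partly cleared gut. The descriptions were followed. The labels call the 3 arrays of a group biological replicates.

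The values are RMA intensities on a linear scale. Each of the 4 transcripts was well above the lowest intensity of the arrays, at most 9.52 for wild-type arrays and 2.06 for driver-cross arrays. That lowest value is not a background level. On whole-larva arrays kis, at 96 to 232, lay below the median of every array, 281 to 307. SuUR did so too, except on replicate 1 at 8 h. In ring gland, kis was also below the array median on replicates 1 and 2 at 4 h and on every array at 8 h. The brightest transcript reached at least 39563 on each wild-type array and 36588 on each driver-cross array, and His4r was the member nearest to it. Scanner saturation was not tested. Each part was hybridised on a pair of chips, and since the chip of each array is not given here, chips were not tested as batches. The parts were treated as normalised apart, and no difference was tested across them. Of the whole-larva arrays, replicate 1 at 24 h and replicate 1 at 36 h deviated most from their group mean, with SDs of the log2 deviations of 0.413 and 0.448, against 0.164 to 0.295 for the other whole-larva arrays. None of the 35 markers of gland, fat body, salivary gland, gut, muscle or brain cells listed for a check of the tissue was among the named transcripts, so the dissections were not checked here. Of a list of 78 other chromatin and replication genes, 0 were among the named transcripts. Fewer cells of a type and less RNA per cell cannot be told apart in such samples.

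All 4 transcripts were higher in ring gland than in whole larva. Averaged over the 4 times, kis was 2.35-fold higher, SuUR 1.92-fold, HDAC3 1.41-fold and His4r 1.24-fold. A transcript was called when limma's test gave an adjusted p under 0.05, and 4 of 4 members were called higher, where 57.1% of all transcripts were. The median transcript was itself higher in ring gland by 0.27 on the log2 scale. Relative to that median, kis was higher by 0.96, SuUR by 0.67, HDAC3 by 0.23 and His4r by 0.03.

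For kis, the 12 ring gland arrays ranged from 226 to 512 with a median of 301, and the 12 whole-larva arrays from 96 to 232 with a median of 121. The ranges overlapped through 1 whole-larva array, replicate 1 at 8 h. At 4 h of the third instar the intensities of kis were 244, 244 and 308 in ring gland and 119.7, 119.6 and 138 in whole larva. At 8 h they were 279.6, 226 and 275 in ring gland and 232, 122 and 136 in whole larva. This was the single time at which the tissues overlapped. At 24 h kis was at 302, 299.7 and 336 in ring gland and 121, 97.4 and 117 in whole larva. At 36 h it was at 512, 318 and 355 in ring gland and 96, 141 and 140.1 in whole larva. Ring gland replicate 1 at 36 h stood above all other ring gland arrays. Over all transcripts its median intensity was 335.5, the highest of the wild-type arrays, against 278.7 and 293.1 for the other arrays of its group. HDAC3 and SuUR were also highest of the group on this array, and His4r was lowest.

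The log2 difference of kis between ring gland and whole larva was 1.07 ± 0.21 at 4 h and 0.73 ± 0.21 at 8 h (SE, adjusted p = 0.00025 and 0.0062). It was 1.49 ± 0.21 at 24 h and 1.64 ± 0.21 at 36 h (adjusted p = 6.5e-06 and 1.4e-06). Leaving out 1 array at 8 h gave differences of kis from 0.54 without whole-larva replicate 2 (adjusted p = 0.047) to 1.01 without whole-larva replicate 1, and with arrays centred it was 0.47 (adjusted p = 0.041), all called. In this difference kis lay above 85.8% of all transcripts at 4 h, 72.9% at 8 h, 92.1% at 24 h and 89.7% at 36 h.

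SuUR was separated by tissue at every time. At 4 h its intensities were 393, 407 and 426 in ring gland and 216, 245 and 237 in whole larva. At 8 h they were 427, 438 and 484 in ring gland and 342, 271 and 279 in whole larva, and each tissue had its highest group mean at this time. At 24 h they were 366, 420.2 and 332 in ring gland and 177, 127 and 204.9 in whole larva. At 36 h they were 436, 292 and 361 in ring gland and 131, 176 and 171 in whole larva. The lowest ring gland value at 36 h was below the highest whole-larva value at 8 h, but within each time the arrays did not overlap.

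The log2 difference of SuUR was 0.81 ± 0.17 at 4 h and 0.60 ± 0.17 at 8 h (SE, adjusted p = 0.00032 and 0.004). It was 1.16 ± 0.17 at 24 h and 1.18 ± 0.17 at 36 h (adjusted p = 6.7e-06 and 3.7e-06). Arrays were also centred, each on its median log2 deviation from the mean array. The difference of SuUR at 8 h was then 0.35 and was not called (adjusted p = 0.052).

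**Figure D1:**
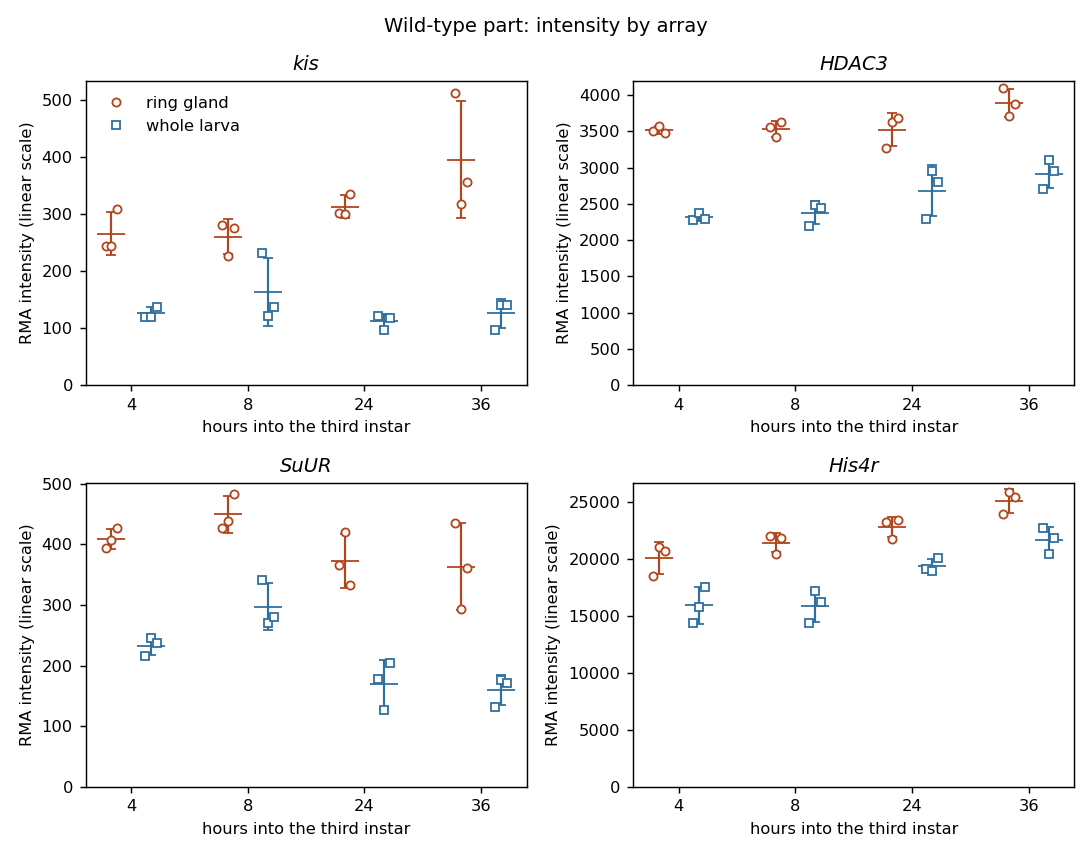
RMA intensity (linear scale, from 0) of the 4 transcripts on each wild-type array against hours of the third instar, with ring gland as circles left of whole larva as squares, and group mean ± SD (n = 3) as bars. Ring gland lay above whole larva at every time, except that whole-larva replicate 1 at 8 h, at 232, reached the ring gland range for kis.

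The HDAC3 transcript was higher in ring gland by less. At 4 h its intensities were 3509.5, 3575 and 3473 in ring gland and 2283, 2378 and 2287 in whole larva. At 36 h they were 4098, 3713 and 3870.3 in ring gland and 2702, 3099.7 and 2949.9 in whole larva. At 8 h the ring gland arrays lay between 3418 and 3629 and the whole-larva arrays between 2196 and 2489, and at 24 h between 3264 and 3679 in ring gland and between 2285 and 2956 in whole larva. The tissues did not overlap at any time. The log2 differences were 0.60 at 4 h, 0.57 at 8 h, 0.40 at 24 h and 0.42 at 36 h, each ± 0.09 (SE, adjusted p from 1.3e-05 to 0.00076). The median transcript was 0.44 higher in ring gland at 36 h. With arrays centred, the call of HDAC3 was lost at 24 h (0.12, adjusted p = 0.27), and at 36 h its sign turned without a call (-0.023, adjusted p = 0.83).

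His4r differed least between the tissues. Its intensities at 4 h were 18491, 21049.8 and 20697 in ring gland and 14373, 15773 and 17547 in whole larva. At 36 h they were 23915, 25859.7 and 25387 in ring gland and 22709, 20380.5 and 21829 in whole larva. The arrays of the tissues did not overlap at 4, 8, 24 or 36 h, with log2 differences of 0.34, 0.43, 0.23 and 0.21, each ± 0.09 (SE, adjusted p = 0.0024, 0.00025, 0.024 and 0.033). With arrays centred the mean difference of His4r was 0.0026 (adjusted p = 0.96), and at 36 h it turned to -0.23 and was called lower (adjusted p = 0.043). The calls at 24 and 36 h were each lost when 1 of 4 of the 6 compared arrays was left out, with adjusted p up to 0.070 and 0.12, and when the compared groups were fitted alone (adjusted p = 0.057 and 0.11).

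At the single times, 4 of 4 members were called higher in ring gland, where 40.7, 43.3, 46.1 and 56.3% of all transcripts were at 4, 8, 24 and 36 h. With arrays centred the numbers called higher were 3, 2, 2 and 2, with 1 called lower at 36 h. The share of all transcripts called with arrays centred was not counted, so these numbers have no background beside them. In both fits kis was called higher at each time.

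Within the ring gland at 36 against 4 h, 1 of 4 members was called higher and 0 lower, where 24.5 and 13.4% of all transcripts were. His4r averaged 25054 ± 1014 at 36 h and 20079 ± 1387 at 4 h (SD, n = 3 each), a log2 change of 0.32 ± 0.09 (SE, adjusted p = 0.0074). The call was lost with arrays centred (0.17, adjusted p = 0.21) and when the 2 groups were fitted alone (adjusted p = 0.063). For kis the means were 395 ± 103 at 36 h and 265 ± 37.3 at 4 h (SD, n = 3 each). Its log2 change of 0.55 ± 0.21 missed the threshold (SE, adjusted p = 0.0502, interval from 0.10 to 1.00). The arrays of these groups did not overlap, but the change depended on 1 array, since it was 0.35 without ring gland replicate 1 at 36 h (adjusted p = 0.26). Without ring gland replicate 2 at 36 h or replicate 3 at 4 h it was called, at 0.69 and 0.67 (adjusted p = 0.030 and 0.041).

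SuUR averaged 363 ± 71.6 at 36 h and 409 ± 16.6 at 4 h in the ring gland (SD, n = 3 each), with overlapping arrays and a log2 change of -0.19 ± 0.17 (SE, adjusted p = 0.40). Its interval, at 95%, ran from -0.54 to 0.16. HDAC3 averaged 3894 ± 193 at 36 h and 3519 ± 51.5 at 4 h (SD, n = 3 each), with a log2 change of 0.14 ± 0.09 (SE, adjusted p = 0.23) and no overlap. In the steps from 4 to 8, 8 to 24 and 24 to 36 h, 0 of 4 members were called by limma in the ring gland, where 4.75, 10.7 and 11% of all transcripts were called in either direction. At an unadjusted p under 0.05 the number was also 0 in each step, and the share of all transcripts was not counted. The largest step among the members was that of kis from 24 to 36 h, at 0.31 ± 0.21 (SE, adjusted p = 0.40).

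In whole larva, 2 of 4 members were called higher at 36 against 4 h and 1 lower, where 25.6 and 28.3% of all transcripts were. The His4r transcript averaged 21639.6 ± 1176 at 36 h and 15898 ± 1591 at 4 h (SD, n = 3 each), a log2 change of 0.45 ± 0.09 (SE, adjusted p = 0.00029). HDAC3 averaged 2917 ± 201 at 36 h and 2316 ± 53.8 at 4 h (SD, n = 3 each), a change of 0.33 ± 0.09 (SE, adjusted p = 0.0051). For both, all 3 arrays at 36 h lay above the 3 at 4 h. SuUR averaged 159 ± 24.7 at 36 h and 233 ± 15.3 at 4 h (SD, n = 3 each) and fell by 0.56 on the log2 scale (SE 0.17, adjusted p = 0.0088). Without replicate 1 at 36 h, the array that stood apart, the change was -0.42 and was not called (adjusted p = 0.055).

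The fall of SuUR in whole larva lay between 8 and 24 h. It averaged 169.8 ± 39.3 at 24 h and 297 ± 38.7 at 8 h (SD, n = 3 each), a log2 change of -0.83 ± 0.17 (SE, adjusted p = 0.0014), and it was among the 873 transcripts that changed as far or further downward in that step. Without whole-larva replicate 1 at 8 h, or without replicate 1 at 24 h, it was -0.72 and -0.87, both called. Leaving out each compared array in turn gave changes of SuUR from -0.98 to -0.63, all called. His4r was higher at 24 than at 8 h, by 0.29 ± 0.09 (SE, adjusted p = 0.023), a call that was lost without replicate 1 at 8 h (adjusted p = 0.13), without replicate 3 at 24 h, or with these groups fitted alone. In this step 1 of 4 members was called higher and 1 lower, where 10.1 and 10.6% of all transcripts were. For kis the change was -0.49 ± 0.21 (SE, adjusted p = 0.12), and -0.21 without replicate 1 at 8 h, its high array. The mean of kis over 3 arrays was 126 at both 36 and 4 h, with a log2 change of -0.02 ± 0.21 (SE, adjusted p = 0.95).

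The test of the difference between tissues in the change from 4 to 36 h called 0 of 4 members in limma. Of all transcripts, 44.9% were called. At an unadjusted p under 0.05 the number of members was also 0, and the share of all transcripts was not counted. For kis the difference was 0.57 ± 0.30 (SE, adjusted p = 0.13), for SuUR 0.37 ± 0.24 (adjusted p = 0.21), for HDAC3 -0.19 ± 0.13 (adjusted p = 0.25) and for His4r -0.13 ± 0.12 (adjusted p = 0.42). HDAC3 was called with arrays centred, at -0.40 (adjusted p = 0.017), and after a second quantile normalisation, at -0.35 (adjusted p = 0.031). The median transcript changed more positively in the ring gland by 0.19.

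In order of group means, the 4 ring gland groups came above the 4 whole-larva groups for kis, SuUR and HDAC3. For kis the order was 36, 24, 4 and 8 h in ring gland, then 8, 4, 36 and 24 h in whole larva, and every pair of neighbours overlapped. For SuUR it was 8, 4, 24 and 36 h in ring gland and 8, 4, 24 and 36 h in whole larva, with no overlap between 8 and 4 h in either tissue or between 4 and 24 h in whole larva. For HDAC3, ring gland at 36 h and the gap between the tissues were clear of their neighbours. His4r mixed the tissues, since whole larva at 36 h came between ring gland at 24 and 8 h.

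In RasV12 glands 3 of 4 members were called lower than in control glands at each time before puparium formation, and 0 higher. At 18 h these were kis, HDAC3 and His4r, against a background of 21.7% of all transcripts called lower and 22.8% higher. At 8 h they were kis, HDAC3 and SuUR, and 22.3% were called lower and 20% higher. The kis transcript was the most changed of the 4, at 0.47-fold of control at 18 h and 0.61-fold at 8 h.

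At 18 h before puparium formation, kis was at 697, 763 and 689.7 in RasV12 glands and 1443, 1573 and 1569.6 in control glands. At 8 h it was at 927, 1007 and 912 in RasV12 glands and 1508, 1798 and 1393 in control glands. The highest RasV12 array was below the lowest control array at each time. The log2 change was -1.09 ± 0.12 at 18 h and -0.72 ± 0.12 at 8 h (SE, adjusted p = 7.2e-06 and 0.00024). At 18 h it was among the 1589 transcripts that changed as far or further downward.

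HDAC3 was at 4222, 4014 and 4042 in RasV12 glands and 4704, 4972 and 4895 in control glands at 18 h. At 8 h it was at 3892, 4128 and 4174 in RasV12 glands and 4728, 4688 and 5022 in control glands. The groups did not overlap, and the log2 changes were -0.25 ± 0.05 at 18 h and -0.24 ± 0.05 at 8 h (SE, adjusted p = 0.0022 and 0.0026). These are changes of 0.84-fold at both times. HDAC3 was among the 5268 transcripts at 18 h and the 5346 at 8 h that changed as far or further downward.

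SuUR was at 736, 617 and 668 in RasV12 glands and 711, 676 and 694 in control glands at 18 h, with overlap. At 8 h it was at 568, 524 and 514 in RasV12 glands and 691, 675 and 619 in control glands, without overlap. The log2 change was -0.05 ± 0.07 at 18 h (SE, adjusted p = 0.63, interval from -0.20 to 0.11) and -0.31 ± 0.07 at 8 h (adjusted p = 0.0034). The test of the difference between these times gave -0.26 ± 0.10 (SE, adjusted p = 0.14), so the change was not shown to differ between them. His4r was at 15832, 16198 and 15209 in RasV12 glands and 18451, 17088 and 17550.1 in control glands at 18 h, a log2 change of -0.17 ± 0.06 (SE, adjusted p = 0.027). This call was lost when the 2 groups were fitted alone (adjusted p = 0.14) and when replicate 1 or 3 of either group was left out (adjusted p up to 0.11). At 8 h His4r was at 17360.0, 16837 and 16699 in RasV12 glands and 17540.0, 17748 and 18577 in control glands. These arrays did not overlap either, but the change of -0.08 ± 0.06 was not called (SE, adjusted p = 0.28). Of the called changes, His4r at 18 h was among the 5914 transcripts that changed as far or further downward, and SuUR at 8 h among 4822.

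**Figure D2:**
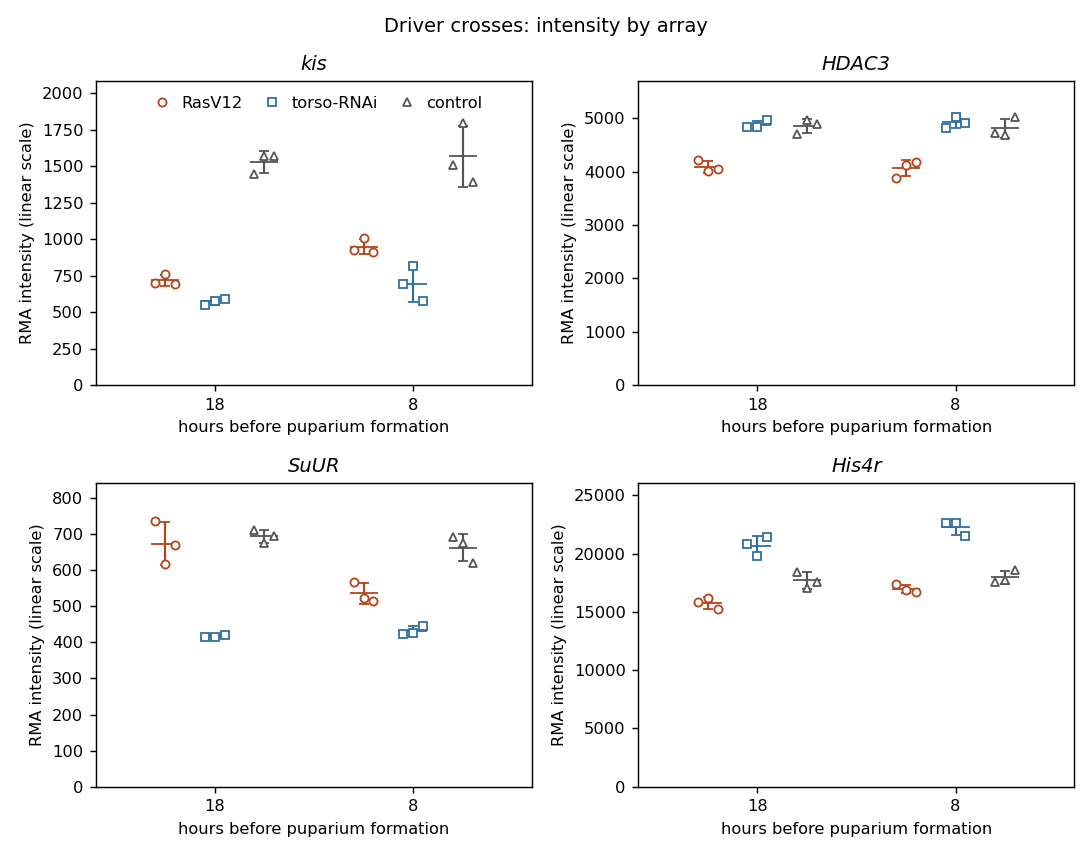
RMA intensity (linear scale, from 0) of the 4 transcripts on each driver-cross array at 18 and 8 h before puparium formation, with RasV12 as circles, torso-RNAi as squares and control as triangles, and group mean ± SD (n = 3) as bars. Both manipulated genotypes lay below control for kis, torso-RNAi lay below control for SuUR at both times, RasV12 alone lay below control for HDAC3, and torso-RNAi lay above control for His4r.

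In torso-RNAi glands kis and SuUR were lower than in control glands, His4r was higher and HDAC3 was not called, at both times. Thus 1 of 4 members was called higher and 2 lower at each time. The background of higher calls was 18.5% of all transcripts at 18 h and 15.5% at 8 h, and that of lower calls was 22.6% and 23.6%. The level of torso itself was not analysed here.

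For kis the intensities at 18 h were 548, 579 and 592 in torso-RNAi glands, against the same control arrays at 1443, 1573 and 1569.6. At 8 h they were 692, 813 and 573 in torso-RNAi glands, against 1508, 1798 and 1393 in control glands. The highest torso-RNAi array was below the lowest control array at each time. The log2 change was -1.42 ± 0.12 at 18 h and -1.18 ± 0.12 at 8 h (SE, adjusted p = 1e-06 and 4.8e-06), or 0.375-fold and 0.44-fold. It was among the 555 transcripts at 18 h and the 857 at 8 h that changed as far or further downward.

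The SuUR transcript was at 415, 414 and 421 in torso-RNAi glands and 711, 676 and 694 in control glands at 18 h. At 8 h it was at 423, 424 and 446 in torso-RNAi glands and 691, 675 and 619 in control glands. The 6 torso-RNAi arrays lay between 414 and 446, a narrow range beside the gap to the lowest control array. The log2 change was -0.73 ± 0.07 at 18 h and -0.62 ± 0.07 at 8 h (SE, adjusted p = 3.5e-06 and 1.6e-05), or 0.60-fold and 0.65-fold. SuUR was among the 2169 transcripts at 18 h and the 2824 at 8 h that changed as far or further downward.

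The transcript of His4r went the other way. His4r was at 20863, 19788 and 21395 in torso-RNAi glands and 18451, 17088 and 17550.1 in control glands at 18 h. At 8 h it was at 22631, 22619 and 21496 in torso-RNAi glands and 17540.0, 17748 and 18577 in control glands. The lowest torso-RNAi array exceeded the highest control array at each time. The log2 change was 0.22 ± 0.06 at 18 h and 0.31 ± 0.06 at 8 h (SE, adjusted p = 0.0058 and 0.00066), or 1.17-fold and 1.24-fold. His4r was among the 5118 transcripts at 18 h and the 3741 at 8 h that changed as far or further upward.

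HDAC3 was at 4831, 4846 and 4964 in torso-RNAi glands and 4704, 4972 and 4895 in control glands at 18 h. At 8 h it was at 4818, 5033 and 4923 in torso-RNAi glands and 4728, 4688 and 5022 in control glands. The groups overlapped at both times. The log2 change was 0.01 ± 0.05 at 18 h (SE, adjusted p = 0.94, interval from -0.11 to 0.12) and 0.03 ± 0.05 at 8 h (adjusted p = 0.68, interval from -0.08 to 0.15).

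**Figure D3:**
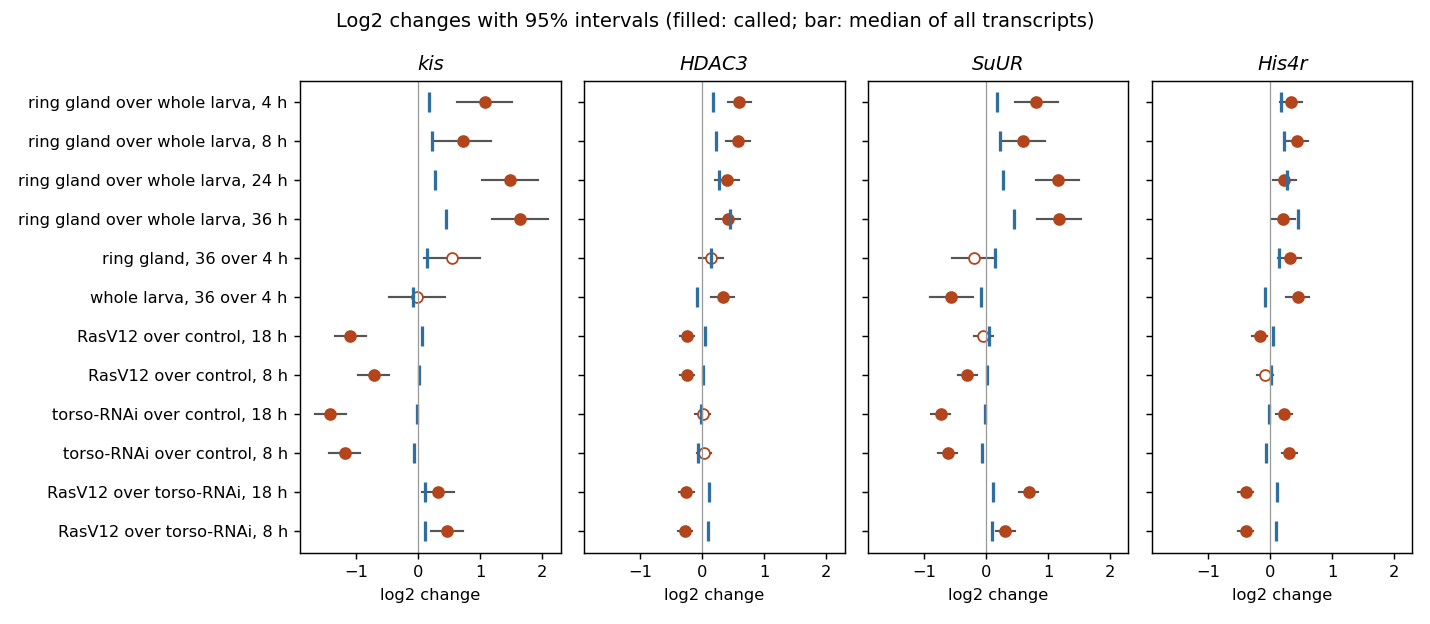
Log2 changes of the 4 transcripts (x axis) in 12 comparisons (rows) with 95% intervals from limma. Filled points were called at an adjusted p under 0.05, and the short vertical bars mark the median change of all 16637 transcripts. The points of kis lie to the right for ring gland over whole larva and to the left for both genotypes over control.

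RasV12 and torso-RNAi were compared with the same control arrays, so their difference was read from the direct test between them. A change shared by both genotypes rests on those control arrays and was not addressed by the direct test. That test called 4 of 4 members at each time, with 2 higher and 2 lower in RasV12 glands. Calls in the higher direction made up 28.2% of all transcripts at 18 h and 29% at 8 h, and those in the lower direction 21% and 21.9%. SuUR was higher in RasV12 than in torso-RNAi glands by 0.69 ± 0.07 on the log2 scale at 18 h and 0.31 ± 0.07 at 8 h (SE, adjusted p = 3.2e-06 and 0.0024). His4r was lower in RasV12 glands, by log2 changes of -0.39 ± 0.06 at each time (SE, adjusted p = 6.3e-05 and 6e-05). HDAC3 was also lower, by changes of -0.25 ± 0.05 and -0.28 ± 0.05 (SE, adjusted p = 0.0015 and 0.00074). The arrays of the 2 genotypes did not overlap in any of these comparisons. The share of all transcripts without such overlap was not counted.

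For kis, which was below control in both genotypes, the RasV12 arrays lay above the torso-RNAi arrays at both times. The log2 difference was 0.32 ± 0.12 at 18 h and 0.47 ± 0.12 at 8 h (SE, adjusted p = 0.034 and 0.0043). The call at 18 h was lost when any of the 6 arrays was left out (differences from 0.28 to 0.35, adjusted p from 0.05 to 0.11) and with arrays centred (0.23, adjusted p = 0.095). The call at 8 h was lost when these groups were fitted alone (adjusted p = 0.058).

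Between 18 and 8 h before puparium formation, 0 of 4 members were called in control glands, where 13.8% of all transcripts were, and 0 in torso-RNAi glands, where 26.2% were. At an unadjusted p under 0.05 these limma counts were 0 in control glands and 1 in torso-RNAi glands, where it was kis. No share of all transcripts was counted at that threshold. In RasV12 glands 1 of 4 was called higher and 1 lower, where 16.1 and 17.2% of all transcripts were. The kis transcript averaged 948 ± 51.1 at 8 h and 717 ± 40.5 at 18 h in RasV12 glands (SD, n = 3 each), a log2 change of 0.40 ± 0.12 (SE, adjusted p = 0.016). That call was lost without RasV12 replicate 1 or 3 at 18 h or replicate 2 at 8 h (adjusted p up to 0.061). SuUR averaged 535 ± 28.6 at 8 h and 674 ± 59.5 at 18 h, a change of -0.33 ± 0.07 (SE, adjusted p = 0.0028) that was not called with the 2 groups fitted alone (adjusted p = 0.064).

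In control glands the log2 changes at 8 against 18 h were 0.03 for kis, -0.01 for HDAC3, -0.07 for SuUR and 0.02 for His4r, and the arrays of the times overlapped for all 4. In torso-RNAi glands kis averaged 693 ± 120 at 8 h and 573 ± 22.6 at 18 h (SD, n = 3 each), a change of 0.26 ± 0.12 (SE, adjusted p = 0.12). Without torso-RNAi replicate 3 at 8 h it was 0.39 and called (adjusted p = 0.022). The tests of whether the time change differed from control called 0 of 4 members for RasV12 and 0 for torso-RNAi in limma, where 7.48 and 3.01% of all transcripts were called. At an unadjusted p under 0.05, these counts were 2 (kis and SuUR) and 0. The share of all transcripts at this unadjusted threshold was not counted.

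In order of group means in the driver crosses, kis was highest in the control groups, then in RasV12 at 8 and 18 h and then in torso-RNAi at 8 and 18 h. Of these steps, control to RasV12 and RasV12 at 8 to 18 h were without overlap. For SuUR the control and 18 h RasV12 groups overlapped at the top, followed without overlap by RasV12 at 8 h and torso-RNAi at 8 and 18 h. For HDAC3 the torso-RNAi and control groups overlapped, with both RasV12 groups below them. For His4r torso-RNAi at 8 and 18 h came first, then the control groups, then RasV12 at 8 h, which overlapped control at 18 h, and RasV12 at 18 h.

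**Figure D4:**
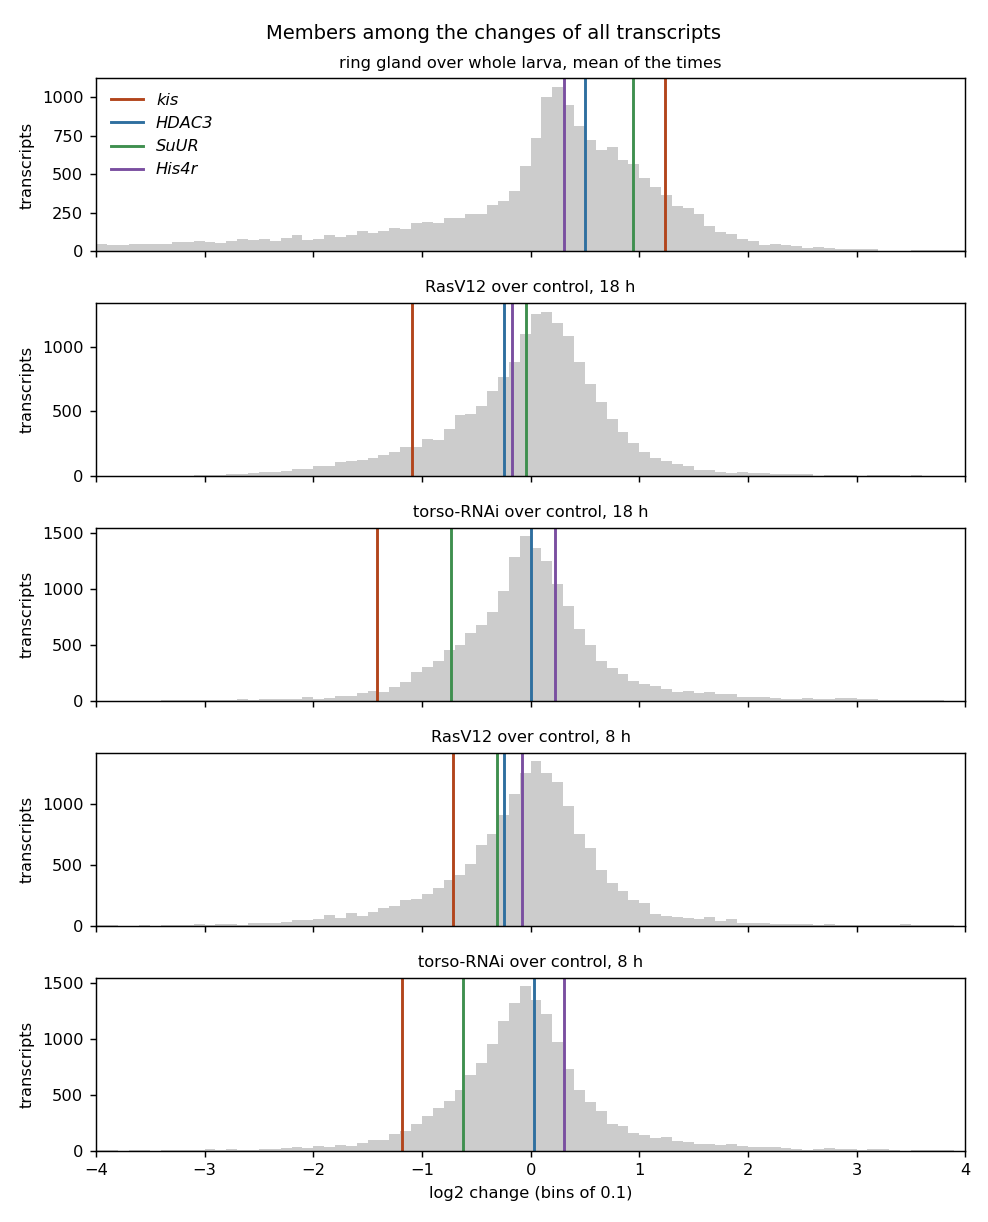
Number of transcripts (y axis) by log2 change in bins (x axis) for 5 comparisons, with the 4 members as coloured lines. Changes beyond the plotted range are not drawn. The kis line lies in the upper part of the ring gland distribution, above 87.6% of transcripts, and in the lower part for RasV12 and torso-RNAi at 18 h, above 9.54 and 3.33% of them.

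Likeness of pattern was described, with no test, as the lower of 2 Pearson correlations of log2 group means, 1 over the 8 wild-type groups and 1 over the 6 driver-cross groups. Between members, kis and SuUR had r = 0.86 and 0.75 over the wild-type and driver-cross groups. HDAC3 and His4r had 0.90 and 0.76. SuUR and His4r had 0.28 and -0.82, and kis and HDAC3 had 0.88 and 0.15. The groups of a part share a normalisation and the driver-cross genotypes share a driver, and high values are common over so few points. The wild-type r also takes in the gap between the tissues. Within the ring gland at 4, 8, 24 and 36 h, the log2 means of kis were 8.04, 8.02, 8.29 and 8.59. Those of SuUR were 8.68, 8.81, 8.54 and 8.48, so by these means kis was highest and SuUR lowest at 36 h. Neither change from 4 to 36 h was called (limma, adjusted p = 0.0502 for kis and 0.40 for SuUR).

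Of the other named transcripts, the one most like kis was Uba1, which encodes the E1 enzyme of ubiquitin activation, at r = 0.96 and 0.98, and it ranked 17 among all transcripts. CG16974, for which no role is given here, followed at 0.93 and 0.94. The unnamed transcripts most like kis were FBtr0079081 (0.99 and 0.99) and FBtr0084633 (0.99 and 0.98). For SuUR they were FBtr0082121 (0.98 and 0.99) and FBtr0074967 (0.99 and 0.97). For HDAC3 they were FBtr0084645 (0.99 and 0.98) and FBtr0077176 (0.98 and 0.98), and for His4r FBtr0114361 (0.96 and 0.96) and FBtr0082392 (0.95 and 0.99). HDAC3 ranked 252 for likeness to His4r, and SuUR ranked 1286 for likeness to kis. With Spearman's rho in place of Pearson's r, the lower value for the HDAC3 pair was 0.71 and 0.77, and for the other 6 transcripts it lay between 0.89 and 0.98.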

How the data were processed

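The authors deposited RMA intensity values on a linear scale for 16637 FlyBase transcript identifiers on 42 arrays. Per the submitters' processing notes the tool was RMA, with no version, and no source used here gives the probe annotation or background step. Whether the His4r probes also bind messages of other histone H4 genes was not tested. Intensities were taken to log2 without a pseudocount or filter. The wild-type and driver-cross arrays were fitted apart with limma 3.58.1 in R 4.3.3 (group means, 28 contrasts, plain empirical Bayes moderation). Benjamini-Hochberg adjustment ran over all 16637 transcripts in each contrast, on 2-sided p-values. Intervals are at 95% from the moderated t distribution. Shares of all transcripts were counted in this fit at the adjusted threshold only. Counts of members at an unadjusted p or with arrays centred therefore have no background beside them. Overlap of arrays was read for the members alone, so statements of overlap have none either. The fit was tested on simulated data. Of 44 identifiers found in the reference, 16 belonged to 1 gene. The members, lists and tests were chosen with earlier results of these data known. Named genes are the 4 members, and for likeness the 2 closest transcripts and the other named ones. Alternatives were a second quantile normalisation, centring each array on its median log2 deviation from the mean array, leaving out the dimmest 25% of transcripts, trend and robust moderation, array weights (whose estimate stopped before convergence), a block for replicate number, a fit of only the groups compared, Spearman's rho for likeness and leaving out each array. The number of arrays limits the precision. Reference sequences were not used here.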

Additional observations from a re-analysis of the deposited data

How the results depend on the processing

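For the 112 combinations of a member and a comparison, 1704 values were recomputed. Of these, 1649 kept their side of the threshold, 40 lost a call and 12 gained one. The other 3 changed sign where at least 1 of the fits made a call. Changes of sign where neither fit made a call were counted among the 1649. An example is kis in ring gland at 8 against 4 h, at -0.026 in the main fit and up to 0.087 with 1 array left out. Centring the arrays took the mean difference of His4r between ring gland and whole larva to 0.0026 and turned 3 differences between these tissues, to -0.0496 (His4r at 24 h), -0.23 (His4r at 36 h) and -0.0235 (HDAC3 at 36 h). It also ended the call of His4r in ring gland at 36 against 4 h (0.17). The difference of HDAC3 between tissues in the change from 4 to 36 h became called with arrays centred (-0.40) and with a second quantile normalisation (-0.35). Fitting the compared groups alone, with fewer arrays to estimate the spread, ended 7 calls. They were His4r in ring gland at 36 against 4 h (0.32), in RasV12 glands at 18 h (-0.17), between tissues at 24 and 36 h and in whole larva at 24 against 8 h, kis between RasV12 and torso-RNAi at 8 h, and SuUR in RasV12 glands at 8 against 18 h. With the replicate number as a block, the change of kis in ring gland at 36 against 4 h, at 0.55, became called (adjusted p = 0.046), and likewise with dim transcripts left out (0.55, adjusted p = 0.043), and the block changed no other call. The labels do not say that a number marks a shared batch. Correlations between arrays of the same number, in their deviations from the group mean, ran from -0.48 to 0.34 in the wild-type part (median -0.0026, 15.5% of 84 pairs over 0.1) and from -0.13 to 0.18 in the driver crosses (median -0.0052, 11.1% of 45 pairs over 0.1). Leaving out 1 array gave 0.35 to 0.69 for kis in ring gland at 36 against 4 h, -0.64 to -0.42 for SuUR in whole larva at 36 against 4 h and -0.19 to -0.14 for His4r in RasV12 glands at 18 h. Without both whole-larva arrays that stood apart, an alternative chosen after the data were seen, SuUR in whole larva at 36 against 4 h was at -0.42 and not called (adjusted p = 0.059), nor was His4r between tissues at 24 h (0.22, adjusted p = 0.056). For HDAC3 in whole larva at 24 against 8 h, not called at 0.17, the change without whole-larva replicate 1 at 24 h was 0.28 and called (adjusted p = 0.027). For kis in that step, the change without whole-larva replicate 2 at 8 h was -0.67 and called (adjusted p = 0.049). The cause of these shifts was not tested.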

Other observations

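The members had different ranges in control-cross glands and in wild-type ring glands. These arrays were staged on different time scales and were treated as normalised apart, so no test was made. Every driver-cross array also had a higher median intensity and a lower lowest intensity than any wild-type array. The ranges therefore describe each part on its own scale, and gaps or overlaps between them do not measure a difference in any gene. The kis transcript lay between 1393 and 1798 in the 6 control-cross arrays and between 226 and 512 in the 12 wild-type ring gland arrays. SuUR lay between 619 and 711 in control-cross glands and between 292 and 484 in wild-type glands. HDAC3 lay between 4688 and 5022 in control-cross glands and between 3264 and 4098 in wild-type glands. His4r lay between 17088 and 18577 in control-cross glands and between 18491 and 25859.7 in wild-type glands, so the ranges overlapped for this gene alone.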
